A study of Mus musculus with 4 samples.

Results

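The cells examined here were the minor type that the study named ILC2_2, 1 of 21 cell types into which cells sorted as group 2 innate lymphoid cells (ILC2s) were divided. Its members were the genes in the rows of the deposited cell type marker table whose cluster is ILC2_2, namely 200 of the 1679 genes (11.9%) that the table lists for any type and 10.0% of the 2000 features from which the table was made. Such a row is called a listing here: 1 gene whose average level was higher in a type than in all other cells. The ILC2_2 cells made up 1.78% ± 0.0145 (standard error, SE) of all cells by a size solved from the deposited shares, against 43.2% ± 0.0133 for the main type, ILC2, and 0.542% ± 0.00889 for the type named Plasma cell.

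The cells came from the liver and the lung of male wild-type BALB/c mice, 8 weeks old, injected intraperitoneally on each of 5 days with PBS as the control or with 0.5 µg of recombinant interleukin-33 (rIL-33). Single-cell transcriptomes were read from the 3′ ends of transcripts in droplets, with 1 library for each of 4 groups: PBS lung, PBS liver, rIL-33 lung and rIL-33 liver. Tissue of 2 to 6 mice was pooled for a group, and no group carried a genetic change. The sort kept Thy1-positive cells with CD127 and ST2 and discarded cells with lineage proteins, among them CD3e and TCRβ of T cells and CD45R of B cells.

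The deposited table pools the 4 libraries, so PBS and rIL-33, or liver and lung, were not compared here. It holds no value per library and no cell numbers, there is no replicate behind any value, and the depth is unknown. For each listing it gives, to 3 decimals, which part of the type's cells and which part of all other cells had a value above 0, as the authors' pooled values. Both shares are given below as percentages, and their differences in percentage points. Above and below the other cells refer throughout to these shares and not to the average level, which was higher in ILC2_2 for every listed gene. For 36 of the 200 genes the adjusted p-value of the authors' comparison with all other cells was at least 0.05. The counts below do not leave these genes out. The assay behind the shares is not stated in the sources used here, so a value above 0 is not read as the presence of the transcript in a cell. A type set against the other cells from which it was split is no independent test, so the values below describe ILC2_2 and none carries a p-value.

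ILC2s are tissue lymphocytes that lack rearranged antigen receptors and respond to alarm cytokines of the epithelium. The receptor ST2, encoded by *Il1rl1*, receives interleukin-33, the transcription factor GATA3 keeps the lineage, and the cells release interleukin-5, interleukin-13 and amphiregulin. Immunoglobulin transcripts such as *Igkc*, the constant part of the kappa light chain, are made by B cells and plasma cells, in which *Xbp1* drives the build-up of the secretory pathway.

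The 4 genes given as markers of ILC2_2 were all listed for it. *Igkc*, on chromosome 6 at 70726435 to 70726966 of GRCm38, plus strand, was above 0 in 33.8% of ILC2_2 cells and in 21.1% of all other cells. *Il1rl1*, on chromosome 1 at 40429570 to 40465415, was above 0 in 85.8% and 65.7%. *Areg*, the gene of the epidermal growth factor family ligand amphiregulin, on chromosome 5 at 91139599 to 91148432, was above 0 in 62.7% and 43.7%. *Ctla4*, the gene of an inhibitory receptor of T cells, on chromosome 1 at 60887000 to 60915832, was above 0 in 60.4% and 49.4%. *Il1rl1* had the largest and *Igkc* the smallest share of the 4 inside the cluster, and *Igkc* was also the lowest in the other cells.

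The sequences around the start sites of these markers are shown because all 4 genes were listed for the type together. They are RefSeq entries for GRCm38.p6, from 250 bases before to 50 after an annotated start, on the plus strand, and no entry matched *Igkc*. Capitals mark a match, on either strand, to AGATAA, letters bound by GATA factors, or to TGACGTCA, the cyclic AMP response element. The *Il1rl1* entries are chr1:40429320-40429619 and chr1:40439379-40439678, the *Areg* entry is chr5:91139349-91139648, and the *Ctla4* entry, chr1:60908775-60909074, held no match to either or to TGANTCA, letters of the AP-1 family.
Il1rl1 first start: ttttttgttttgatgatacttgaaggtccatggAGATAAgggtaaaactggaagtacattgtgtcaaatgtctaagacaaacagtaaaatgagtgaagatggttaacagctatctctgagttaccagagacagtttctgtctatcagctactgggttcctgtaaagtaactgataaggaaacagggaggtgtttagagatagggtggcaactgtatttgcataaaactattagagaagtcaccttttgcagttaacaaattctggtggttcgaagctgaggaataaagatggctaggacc
Il1rl1 second start: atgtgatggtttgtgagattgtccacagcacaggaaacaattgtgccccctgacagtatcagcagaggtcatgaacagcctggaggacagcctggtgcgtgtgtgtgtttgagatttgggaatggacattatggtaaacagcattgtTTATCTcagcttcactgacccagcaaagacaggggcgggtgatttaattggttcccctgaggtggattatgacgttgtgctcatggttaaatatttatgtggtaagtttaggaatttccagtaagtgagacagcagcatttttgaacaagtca
Areg: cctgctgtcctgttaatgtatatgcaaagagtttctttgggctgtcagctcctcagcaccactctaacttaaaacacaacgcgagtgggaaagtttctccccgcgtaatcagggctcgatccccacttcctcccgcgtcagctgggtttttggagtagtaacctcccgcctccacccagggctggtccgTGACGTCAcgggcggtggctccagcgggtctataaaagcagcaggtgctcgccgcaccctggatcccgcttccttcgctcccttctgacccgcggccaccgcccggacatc
Ctla4: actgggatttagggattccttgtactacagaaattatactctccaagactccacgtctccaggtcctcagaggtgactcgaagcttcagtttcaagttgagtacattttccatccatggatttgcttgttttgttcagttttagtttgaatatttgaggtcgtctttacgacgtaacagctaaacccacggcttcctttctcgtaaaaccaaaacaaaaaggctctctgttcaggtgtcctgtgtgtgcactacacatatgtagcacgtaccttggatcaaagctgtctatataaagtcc

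Among the 149 members with such an entry, 17 held AGATAA (11.4%), against 8.6% of 1168 genes listed only for other types and 12.7% of all 27025 genes in the RefSeq table. TGANTCA was in 15 members (10.1%), against 7.5% of the genes listed only elsewhere and 9.0% of all genes. TGACGTCA was in 10 members (6.7%), against 3.1% and 2.0%, and this element was chosen after matches to further motifs had been seen. These 10 were *Areg*, *Arl5b*, *Dusp1*, *Ell2*, *Hlf*, *Larp7*, *Nfkbid*, *Pcsk1*, *Snhg15* and *Spata7*. A match describes letters in this window and does not show a bound site.

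*Igkc* was listed for a single other type, Plasma cell, in which 100.0% of cells were above 0. With both types taken out, the solved share of the remaining cells was 20.7%. The ILC2_2 share was thus 13.1 points above that of cells of neither type, and its difference from Plasma cell was −66.2 points. Droplet libraries carry free RNA that adds transcripts to cells that do not make them, and its part in these shares was not tested. The sort discarded CD45R-positive cells, and doublets were removed by flow cytometry, with no caller on the transcripts described.

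The immunoglobulin heavy chain gene *Ighm* did not separate ILC2_2 in the same way. It was above 0 in 67.8% of ILC2_2 cells and 65.2% of the others, with 98.8% in Plasma cell, 96.6% in Macrophage and 91.1% in MMP_LMPP. *Xbp1* was above 0 in 68.7% of ILC2_2 cells and 53.3% of the others, and its share in Plasma cell was 65.9%. *Ell2*, an elongation factor used in immunoglobulin secretion, was above 0 in 63.8% against 48.7%, and *Prdm1*, the gene of the plasma cell regulator Blimp-1, in 31.1% against 37.8%. Of 25 listed genes in a list for B and plasma cells, ILC2_2 held these 5 (20.0%, beside 11.9% of all listed genes), and Plasma cell held 23. *Cd79a* and *Cd79b* of the B cell receptor, *Ms4a1* (CD20), *Mzb1*, the lambda genes *Iglc1*, *Iglc2* and *Iglc3*, and the class II genes *Cd74*, *H2-Aa*, *H2-Ab1* and *H2-Eb1* were not listed for ILC2_2. *Cd79a* was above 0 in 100.0% of Plasma cell and 27.6% of its other cells, and *Jchain* was listed for no type.

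A gene that is not listed may be lower in ILC2_2, similar there, too rare, or outside the 2000 features that the deposited table was made from. Counts over gene lists are given below beside the 11.9% of all listed genes that ILC2_2 holds. The lists were written from known roles but with the members known, so a list with a larger percentage than this is a description and not a sign of enrichment.

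ILC2 genes were listed in part. Of 28 listed genes in the ILC2 list, 14 were listed for ILC2_2 (50.0%), 12 of them also for ILC2, and 10 had a share above that of the other cells. Beside *Il1rl1* and *Areg*, they included the chemokine receptor gene *Ccr8* (61.8% against 38.0%), the neuropeptide gene *Calca* (61.5% against 48.4%), the RANK ligand gene *Tnfsf11* (79.3% against 66.5%) and the E3 ligase gene *Rnf128* (73.1% against 56.4%). *Pcsk1*, which encodes a prohormone convertase, was above 0 in 56.2% against 40.1% and was listed for no other type, though for ILC2 subclusters 0 and 9. *Stab2*, *Ahr* and *Calcrl*, the receptor gene for the *Calca* peptide, were also above the other cells, by 10.3, 7.4 and 6.2 points. *Rora*, *Icos*, *Maf* and the interleukin-25 receptor gene *Il17rb* were listed with shares below those of the other cells, with differences of −3.7, −10.5, −23.3 and −0.7 points.

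Several defining ILC2 genes were absent from the ILC2_2 listings. *Gata3*, above 0 in 93.0% of ILC2 cells and 60.2% of their other cells, was listed for ILC2 and gdT_TypeII only. The cytokine genes *Il5* (33.7% of ILC2 cells) and *Il13* (32.4%) were not listed for ILC2_2, and neither were *Klrg1* (65.7%), *Kit* (78.7%), *Il2ra* (81.0%), *Csf2*, *Cysltr1*, *Hs3st1*, *Id2*, *Ltb4r1*, *Ramp1* and *Zbtb16*. The listings of ILC2_2 thus held *Il1rl1*, *Areg*, *Calca* and *Ccr8*, and not *Gata3*, *Il5* or *Il13*.

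**Figure D1:**
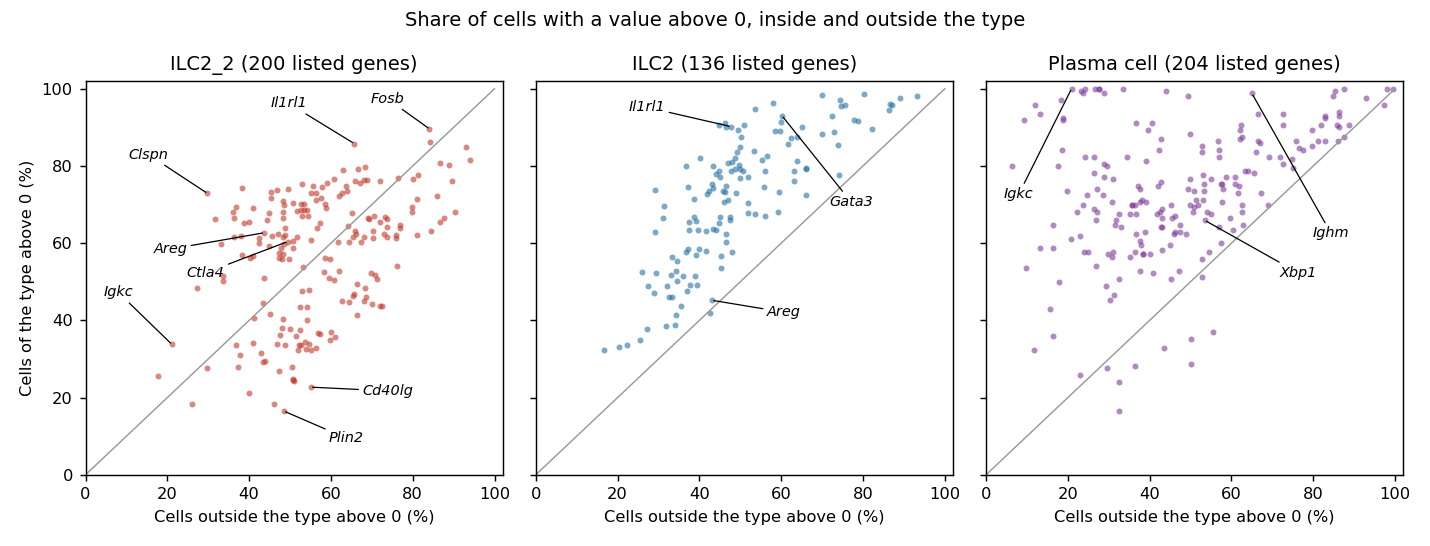
Share of cells above 0 inside the type (vertical axis, %) against the share in all cells outside it (horizontal axis, %), 1 point for each listed gene of ILC2_2, ILC2 and Plasma cell, with the line of equal shares. Of the 200 ILC2_2 genes 106 lie below the line, against 1 of 136 for ILC2 and 10 of 204 for Plasma cell, and no ILC2_2 gene reaches 90%.

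No ILC2_2 gene had a share as high as the highest of any other type. The lowest was 16.5% (*Plin2*), the median 61.5% and the highest 89.6% (*Fosb*), whereas every other type had a gene with a share of at least 98.2%. The other types each had at least 6 genes at 90% or more, and ILC2_2 had 0. Although each listing is of a higher average, 106 of the 200 genes (53.0%) had a smaller share of cells above 0 in ILC2_2 than in the other cells, and 94 had a larger one. Over the 20 other types, 613 of 4222 listings (14.5%) were of this kind. The percentage was higher than in ILC2_2 in CD4 (76.3%), gdT_Naive (74.5%), CD8_Effector (60.6%) and CD8_Naive (57.1%), and close to it in Treg (51.3%).

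The split of the members by their share in the other cells gives a base for the group counts below. It is not a finding, because that share is itself a term of the difference and because the listings hold no gene under 25.2% on both sides. Of 23 members with a share under 40% in the other cells, 17 were above in ILC2_2 and 6 below. Of 100 members between 40% and 60%, 58 were above and 42 below, and of 77 members at 60% or more, 19 were above and 58 below. Across the 200 genes the Pearson correlation of the share inside with the share outside was 0.42, and in the other types it ran from 0.23 in Endothelium cell to 0.90 in CD8_Naive. These genes are not independent replicates, and both shares come from the same libraries.

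**Figure D2:**
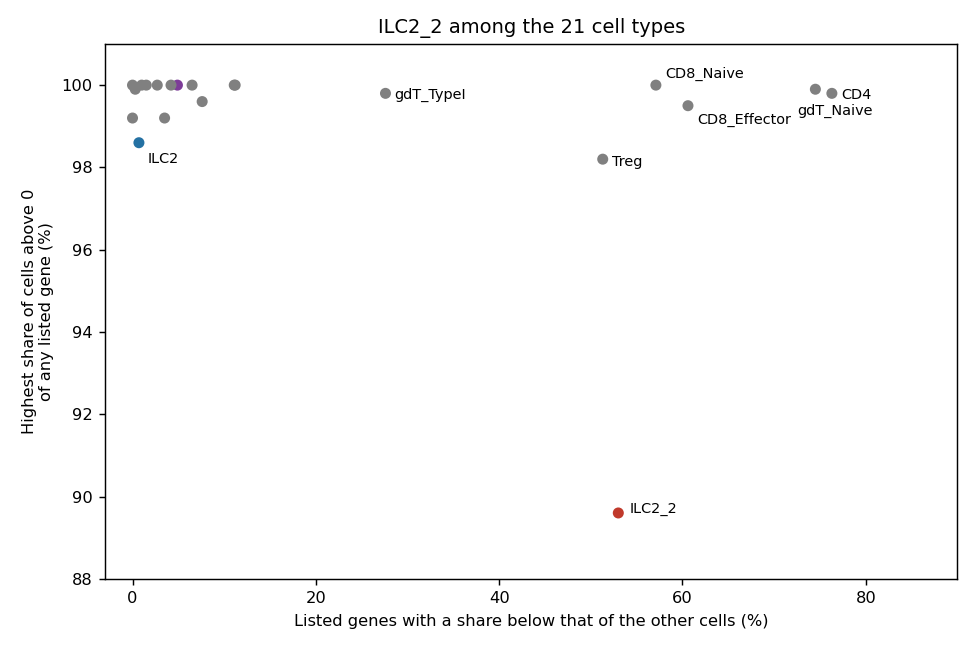
Highest share of cells above 0 of any listed gene (vertical axis, %, starting at 88) against the percentage of listed genes whose share is below that of the other cells (horizontal axis), 1 point for each of the 21 cell types, with ILC2_2 in red, ILC2 in blue and Plasma cell in purple. ILC2_2 sits at 53.0% and 89.6%, and no other type has a highest share under 98.2%.

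The members with the largest excess were not the marker genes. *Clspn*, which encodes claspin, an adaptor of the replication checkpoint, was above 0 in 72.9% of ILC2_2 cells and 29.8% of the others, and the only other type that listed it was the proliferating type (77.3%). *Enah*, an actin regulator, was above 0 in 74.4% against 38.2%, and *Ecm1*, a secreted matrix protein gene, in 66.2% against 31.6%. No other type listed *Ecm1*, but ILC2 subclusters 2, 6 and 8 did. *Slc7a5*, a transporter of large neutral amino acids, stood at 69.3% against 36.8%. These genes had low shares in the other cells and were above 0 in a larger part of ILC2_2 cells than *Areg*.

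The next 6 by excess were *Erc1* (68.0% against 36.1%), the replication kinase gene *Cdc7* (66.5% against 36.4%), the epithelial adhesion gene *Epcam* (69.1% against 41.0%), the phosphatidylcholine synthesis gene *Pcyt1a* (73.3% against 45.4%), *Pecam1*, which encodes CD31 (73.8% against 46.7%), and the titin gene *Ttn* (59.8% against 33.1%). Of these 10 genes, *Enah* and *Epcam* were also listed for ILC2, and *Erc1* and *Pecam1* for Plasma cell.

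At the other end stood *Cd40lg*, the CD40 ligand gene of helper T cells, above 0 in 22.7% of ILC2_2 cells and 55.1% of the others. *Plin2*, a lipid droplet coat gene, was at 16.5% against 48.5%, and the spectrin gene *Sptbn1* at 43.8% against 72.4%. The others of the lowest 10 included *Nabp1*, *Spata7*, *Sik2*, *Hjurp*, *Itgb1* and *Egr1*, with differences from −28.2 to −25.5 points. All 10 were listed, so their average was higher in ILC2_2 although a smaller share of its cells was above 0.

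The overlap with ILC2 was the largest in number with any type. ILC2 listed 51 of the members, which is 25.5% of the ILC2_2 genes and 37.5% of the 136 ILC2 genes, while ILC2 listed 6.80% of all features. They were *Ahr*, *Areg*, *Arhgef12*, *Asb2*, *Calca*, *Calcrl*, *Ccdc184*, *Ccr2*, *Ccr8*, *Cish*, *Cited2*, *Deptor*, *Enah*, *Epcam*, *Ern1*, *Fgl2*, *Fos*, *Fosb*, *Frmd4b*, *Hes1*, *Hlf*, *Il17rb*, *Il1rl1*, *Lztfl1*, *Maf*, *Mctp1*, *Mdfic*, *Myadm*, *Myo6*, *Nfkbiz*, *Npc1*, *Nrip1*, *Plec*, *Plin2*, *Ptpn13*, *Rab27b*, *Rad50*, *Rnf128*, *Rora*, *Sema6d*, *Slc7a8*, *Stab2*, *Stc2*, *Stk19*, *Tiam1*, *Tmem273*, *Tnfsf11*, *Trdv4*, *Wee1*, *Ypel2* and *Zfp36l1*. In ILC2 all 51 had shares above those of its other cells, and in ILC2_2 30 did and 21 did not. The cells outside ILC2_2 are to a large part ILC2 cells, so a second reference was solved for these genes, the share in the 19 types other than ILC2 and ILC2_2. Against it, 41 of the 51 were above in ILC2_2 and 10 below.

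Most shared genes were less frequent in ILC2_2 than in ILC2. These genes are by definition ILC2 listings, of which only 1 of 136 had a share below the other cells. A lower share in ILC2_2 was thus favoured by that choice of genes. The ILC2_2 share was lower for 37 genes and higher for 14, with a median difference of −7.4 points over the 51. For *Il1rl1* the share was 85.8% in ILC2_2, 90.2% in ILC2 and 46.4% in the 19 other types together, of which gdT_TypeII had 95.3%. *Mdfic* (61.6%, 90.5% and 50.7%), *Fgl2* (64.2%, 91.5% and 59.9%) and *Rab27b* (52.9%, 79.2% and 48.5%) lay nearer to the other types than to ILC2. In all, 27 genes lay between the 19 other types and ILC2.

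Below the 19 other types lay the transcription factor genes *Fos* (68.2% in ILC2_2, 94.5% in ILC2 and 87.0% in the other types) and *Maf* (44.9%, 82.6% and 56.9%). *Ern1*, the gene of the unfolded protein sensor IRE1α that splices *Xbp1* mRNA, was at 26.9%, 56.9% and 39.6%. The remaining genes below were *Cited2*, *Deptor*, *Myo6*, *Nfkbiz*, *Plec*, *Plin2* and *Zfp36l1*. Thus the listings shared with ILC2 were not uniform, and 10 of them had a smaller share in ILC2_2 than in either reference.

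The ILC2 share was above that of the 19 other types for all 51 genes, so the 14 genes more frequent in ILC2_2 than in ILC2 were above both references. The largest gaps to ILC2 were those of *Enah* (74.4% against 46.0%), *Epcam* (69.1% against 47.5%), *Areg* (62.7% against 45.2%), *Myadm* (70.9% against 53.5%) and *Ccr8* (61.8% against 46.1%). *Arhgef12*, a guanine exchange factor gene, *Ypel2* and the mitotic kinase gene *Wee1* followed, with gaps of 12.9, 10.8 and 9.9 points. The Notch target *Hes1*, the T cell receptor segment *Trdv4*, *Calca*, *Tiam1*, *Hlf* and *Slc7a8* exceeded ILC2 by 1.2 to 4.8 points. *Areg* was above 0 in 42.5% of the 19 other types, and ILC2 as a whole lay 2.7 points above that reference. Within the ILC2 subclusters of the second deposited table, whose shares run lower, *Areg* was listed for subclusters 3 (51.7%), 7 (62.0% against 39.2% of the other ILC2s) and 8 (57.3% against 39.5%).

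**Figure D3:**
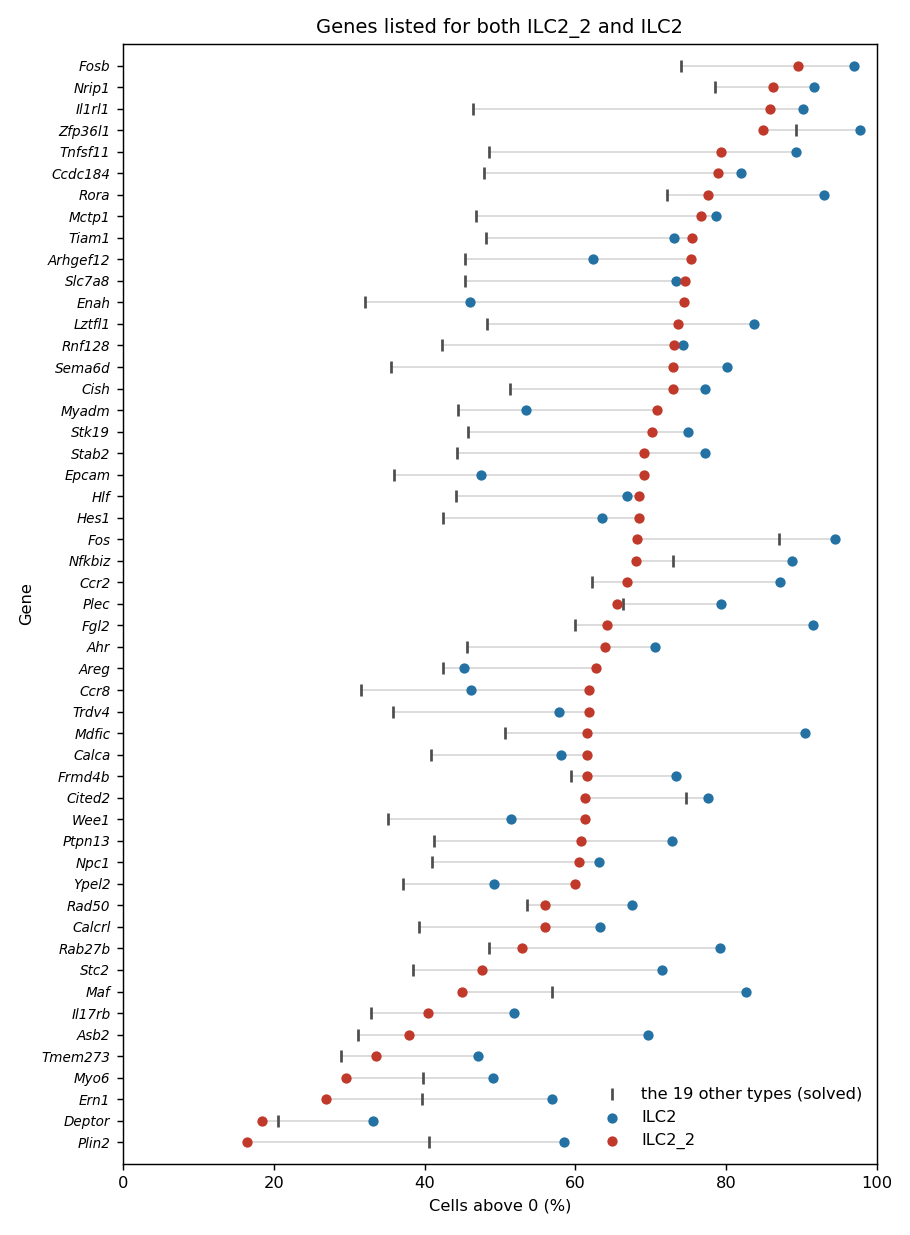
Share of cells above 0 (horizontal axis, %) for the 51 genes listed for both ILC2_2 (red) and ILC2 (blue), with the solved share in the 19 other types as a tick, 1 row for each gene in the order of the ILC2_2 share. Red lies left of blue for 37 genes and right of it for 14, among them Enah, Epcam, Areg, Myadm and Ccr8.

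Plasma cell listed 23 of the members, which is 11.5% of the ILC2_2 genes and 11.3% of the 204 Plasma cell genes. Plasma cell listed 10.2% of all features, so its count among the members was near the background. *Zfp36l1*, an mRNA decay factor gene, was the only gene listed for ILC2_2, ILC2 and Plasma cell. The other 22 included *Cd69*, *Ell2*, *Erc1*, *Filip1l*, *Ighm*, *Igkc*, *Neat1*, *Parp1*, *Pecam1*, *Pou2f2*, *Ralgps2*, *Rcc2*, *Rnps1*, *S1pr1*, *Sfpq*, *Slamf1*, *Slamf6*, *Smad7*, *Sptbn1*, *Txndc11* and *Xbp1*. In ILC2_2, 13 of the 23 had shares above and 10 below those of the other cells.

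Among these genes, 18 were less frequent in ILC2_2 than in Plasma cell. That count was favoured by the choice of genes, because only 10 of the 204 Plasma cell listings had a share below the other cells. The gaps were widest for *Igkc*, described above, and for *Ralgps2*, at 27.8% in ILC2_2 and 88.2% in Plasma cell. *Pou2f2*, the gene of the B cell transcription factor OCT2, was above 0 in 65.3% of ILC2_2 cells, 38.8% of the others and 81.2% of Plasma cell. The 5 genes more frequent in ILC2_2 were *Pecam1* (73.8% against 52.9%), *Erc1* (68.0% against 57.6%), the sphingosine-1-phosphate receptor gene *S1pr1* (76.4% against 70.0%), *Xbp1* (68.7% against 65.9%) and *Ell2* (63.8% against 62.4%). Plasma cell is the authors' name, and the type did not list *Prdm1*. These values therefore do not set ILC2_2 against cells known to secrete antibody.

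**Figure D4:**
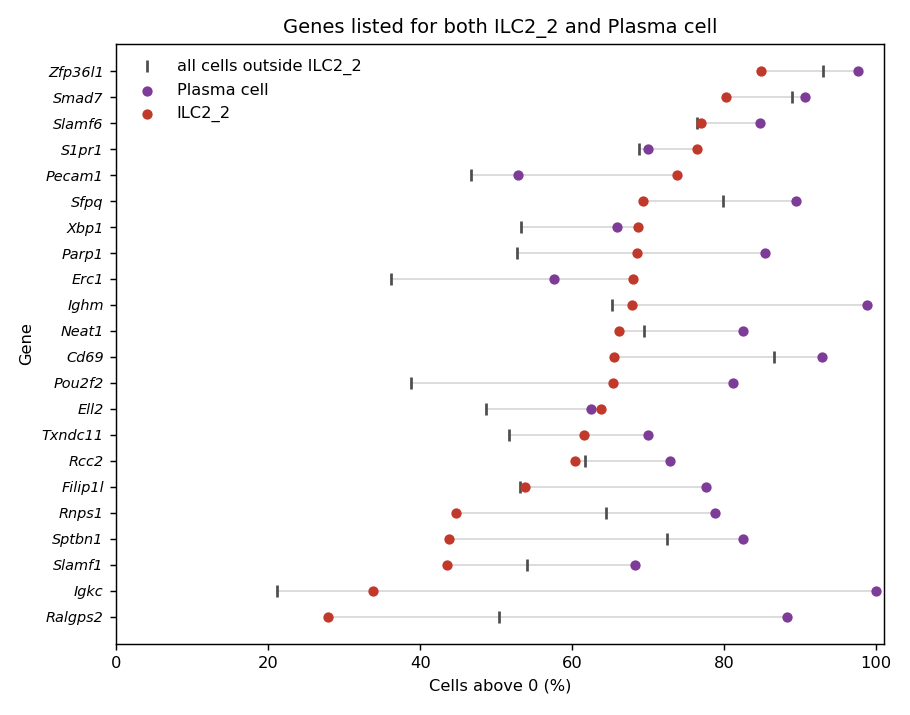
Share of cells above 0 (horizontal axis, %) for 22 of the 23 genes listed for both ILC2_2 (red) and Plasma cell (purple), with all cells outside ILC2_2 as a tick, 1 row for each gene. Igkc stands at 33.8% in ILC2_2 and 100.0% in Plasma cell, and Pecam1, Erc1, S1pr1, Xbp1 and Ell2 are the 5 genes with red right of purple.

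Neither ILC2 nor Plasma cell listed the remaining 127 members (63.5%). These types listed only 6.80% and 10.2% of all features, so most features are in neither list. The 63.5% is therefore no sign of a distance from both types. Treg listed 39 members (19.5%, against 7.5% of all features) and gdT_TypeIII_CD163l1 36 (18.0%, against 9.6%). Endothelium cell and MMP_LMPP listed 35 members each (17.5%), which is below their 19.9% and 20.1% of all features. The short list of gdT_TypeII held 14 members among its 28 genes (50.0%), or 7.0% of the members against 1.4% of all features. A member had a median of 2 other types, 47 members had 5 or more, and *Lck* and *Itgb1* had the most, with 9. No other type listed 19 members.

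Those 19 genes were spread over several roles, and 9 of them were listed for an ILC2 subcluster, beside 138 of all 200 members. Above the other cells were the acyl-CoA synthetase gene *Acsl1* (62.0% against 48.8%), the helicase gene *Dqx1* (48.4% against 27.3%), the tRNA deaminase gene *Adat1* (51.6% against 33.6%), *Ecm1*, *Pcsk1*, *Ppid*, *Zrsr1*, *Lsamp*, *Mdn1*, *Ipmk*, *Slc7a1*, *Yae1d1*, *Hnrnph1* and the gelatinase gene *Mmp9* (25.6% against 17.8%). Below them were *Eif4g1*, *Eprs*, *Thrap3*, *Spty2d1* and *Sik2*. Of the 19, 14 were above the other cells and 5 below, beside 94 and 106 of all members.

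Of the S phase genes, *Clspn* and *Cdc7* were among the 10 members with the largest excess. Of 43 listed S phase genes, 8 were listed for ILC2_2 (18.6%), 6 of them above, with a median difference of 17.6 points over the 8. All 8 were under 60% in the other cells, where 75 of 123 members were above. The 6 were *Clspn*, *Cdc7*, *Casp8ap2* (74.0% against 49.4%), *Wdr76* (56.9% against 38.3%), the helicase genes *Blm* (50.2% against 33.5%) and *Mcm7* (56.7% against 41.0%), and below stood *Cdk2* and *Atad2*. Of 49 listed G2 and M phase genes, 6 were listed, with *Wee1* and *Pcnt* above and *Rcc2*, *Lbr*, *Ncapd3* and *Hjurp* below. Most of the S phase list, 35 genes that other types held, was not listed for ILC2_2.

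From the DNA repair and chromatin list, 12 of 16 genes were listed (75.0%), 6 above and 6 below. *Parp1*, the poly(ADP-ribose) polymerase gene, was above 0 in 68.5% against 52.7%. *Blm*, *Hirip3*, *Rad18*, *Chd7* and *Cbx1* were the others above, and *Nucks1*, *Rad50*, *Smarca5*, *Rif1*, *Baz1b* and *Nabp1* were below. Of 15 RNA processing genes 10 were listed, with *Larp7* (70.2% against 52.6%), *Zrsr1* and *Hnrnph1* above and *Syncrip*, *Srsf10*, *Srsf7*, *Sfpq*, *Thrap3*, *Dhx9* and *Rnps1* below. The long noncoding RNAs *Snhg15* and *Kcnq1ot1* were above by 22.9 and 11.4 points, and *Snhg3* and *Neat1* were below, with differences of −2.4 and −3.2 points.

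The next group holds genes induced within minutes of cell stimulation. Of 25 listed immediate early and AP-1 genes, 8 were listed for ILC2_2 (32.0%), and 7 were below, with a median difference of −13.1 points. All 8 were above 0 in at least 60% of the other cells, where 58 of 77 members were below, so the count is near that of any member as common. *Fosb* (89.6% against 84.1%) was the single gene above. *Fos* was at 68.2% against 90.3%, *Egr1* at 35.6% against 61.1%, *Ier2* at 81.6% against 94.0%, and *Dusp1*, a phosphatase that switches off MAP kinases, at 72.2% against 85.9%. *Fosl2*, *Zfp36l1* and *Rgs1* were the others below. Of 16 genes of signalling feedback 8 were listed, 6 of them at 60% or more in the other cells, and 6 were below, namely *Pim1*, *Smad7*, *Nfkbiz*, *Deptor*, *Socs2* and *Traf1*. *Cish*, a cytokine-induced inhibitor gene (72.9% against 62.7%), and *Nfkbid* (65.3% against 57.4%) were above.

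Of 15 listed interferon response genes, 5 were listed for ILC2_2, each with a higher average but a smaller share of cells above 0 than in the other cells. They included *Irf1* (48.5% against 68.4%), *Gbp4* (41.3% against 66.4%), *Igtp* and *Slfn5*, with a median difference of −19.9 points, and 3 of the 5 were at 60% or more in the other cells. Of 11 listed cytokine and growth factor receptor genes, 4 were listed (36.4%), 3 of them at 60% or more in the other cells. *Il17rb*, described above, was below, and above were *Il1rl1*, the interleukin-6 receptor gene *Il6ra* (74.7% against 63.7%) and its signalling partner *Il6st* (76.0% against 65.9%). *Tnf* was above 0 in 67.1% against 54.3%.

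T cell genes were also among the members. Of 26 listed T cell genes, 10 were listed for ILC2_2 (38.5%), and 8 had shares below the other cells, with a median difference of −15.6 points. Of the 10, 6 were at 60% or more in the other cells. *Trbc1*, a constant segment of the T cell receptor, was above 0 in 66.4% against 87.6%, *Lck* in 62.2% against 81.1%, *Cd4* in 47.8% against 54.6% and *Cd6* in 49.3% against 66.4%. *Themis*, *Trgv2*, *Ikzf2* and *Cd40lg* were also below, and *Cd5* (75.5% against 67.0%) and *Trdv4* (61.8% against 45.5%) were above. *Cd3d*, *Cd3e*, *Cd3g*, *Trac* and *Trdc* were not listed for ILC2_2. *Cd3e* was above 0 in at least 81.6% of the cells outside each type that listed it, although the sort discarded CD3e-positive cells.

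The checkpoint and costimulation list had 7 of 13 genes, with *Ctla4* and *Slamf6* above and *Icos*, *Cd40lg*, *Cd69*, *Slamf1* and *Slamf7* below. *Ctla4* was listed for 2 other types, Treg with 91.6% and CD4 with 40.0%, and not for ILC2 as a whole. With ILC2_2, Treg and CD4 taken out, the share of the remaining cells, ILC2 included, was 48.8%. The second deposited table listed *Ctla4* for ILC2 subclusters 1, 2, 4, 6 and 8, with shares from 50.9% in subcluster 1 to 73.0% in subcluster 8. The killer cell and ILC1 list had 3 of 21 genes, *Zeb2* above (66.5% against 48.4%) and *Tbx21*, the gene of T-bet, and *Slamf7* below. None of *Eomes*, *Ncr1*, *Gzma*, *Gzmb* and *Nkg7* was listed.

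Of 12 listed endothelial genes 5 were members, all above the other cells. None of the 5 was at 60% or more in the other cells, and 75 of the 123 members under 60% were above. They were *Pecam1*, *Stab2*, the semaphorin receptor gene *Nrp1* (57.3% against 48.2%), *Calcrl* and *Cd93* (44.5% against 43.3%), with a median difference of 9.1 points, and *Cdh5*, *Eng*, *Egfl7* and *Flt1* were not listed. *Stab2* and *Calcrl* are also in the ILC2 list and were listed for ILC2. The lung epithelium list gave *Epcam* alone, and the macrophage list *Mmp9* above and *Ctsb* below. Basophil and mast cell genes (0 of 11) and hepatocyte genes (0 of 1) were not among the members, and no type listed a red cell gene. The hepatocyte and red cell lists were thus too thinly held by any type to show an absence.

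Receptors that guide cells were mostly above. Of 18 listed chemokine receptor and tissue exit genes, 6 were listed for ILC2_2, among them *Ccr8*, the nucleotide sugar receptor gene *P2ry14* (71.6% against 45.3%), *Ccrl2* (74.7% against 55.6%) and *S1pr1*, which directs cells out of tissue into lymph. *Ccr2*, at 66.9% against 87.2% in ILC2, was below the other cells, with a difference of −6.3 points. Adhesion genes were 7 of 14, with *Epcam*, *Pecam1* and *Lsamp* above and the integrin genes *Itgav*, *Itga4* and *Itgb1* and the adhesion ligand gene *Icam1* below, with differences from −25.8 to −12.7 points.

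Secretory and metabolic genes were divided. The list of endoplasmic reticulum and secretion genes had 8 of 15, with *Xbp1*, *Txndc11* and the Golgi gene *Golga3* (68.0% against 48.2%) above and *Ern1*, *Pdia6*, *Rpn1*, *Lman1* and *Mogs* below. The chaperone genes *Hspa5*, *Hsp90b1* and *Calr* were not listed. Of amino acid and nutrient transporters all 6 that any type listed were members, *Slc7a5*, *Slc7a8* and *Slc7a1* above and the glucose transporter gene *Slc2a3*, *Slc16a6* and *Slc22a15* below. Of 13 lipid genes 7 were listed, with *Pcyt1a*, *Acsl1* and *Npc1* above and *Plin2*, *Tm6sf1* and *Selenoi* among those below.

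**Figure D5:**
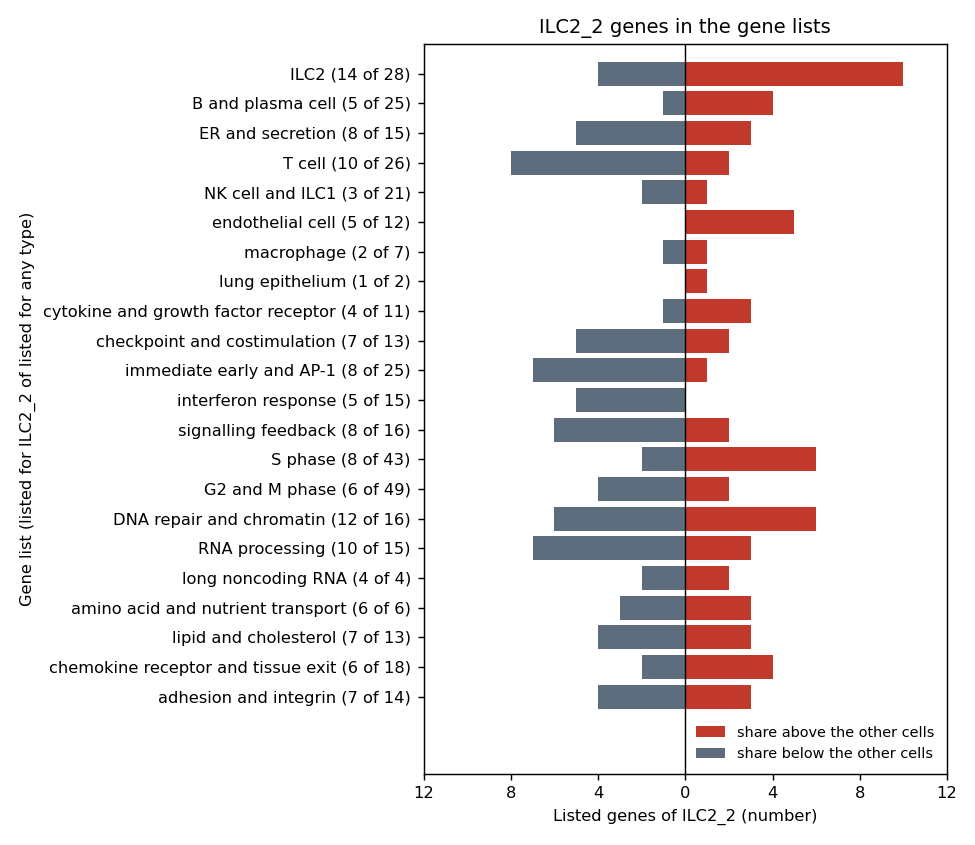
Number of listed ILC2_2 genes in each gene list (horizontal axis), to the right those with a share above the other cells and to the left those with a share below, with the counts listed for ILC2_2 and for any type in brackets. ILC2 genes lie mainly to the right (10 and 4), and T cell (2 and 8), immediate early (1 and 7) and interferon genes (0 and 5) mainly to the left.

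On none of the 25 lists were 66 members, of which 36 had neither an ILC2 nor a Plasma cell listing. Named above were *Ecm1*, *Ttn*, *Dqx1*, *Adat1*, *Ppid*, *Mdn1*, *Ipmk*, *Yae1d1*, *Tnf*, *Eif4g1*, *Eprs*, *Spty2d1*, *Sik2* and *Spata7*. Also above the other cells were the carboxypeptidase gene *Cpd* (65.6% against 39.9%), the nuclear envelope gene *Syne2* (66.0% against 44.3%), *Slc7a6os*, *Arl5b*, the nuclear import gene *Kpnb1*, the dynein gene *Dnah8*, *Mctp2* and *Gcnt1*. Below were *Tob2*, *Tbc1d4*, *Cep290*, *Ipcef1*, the dipeptidyl peptidase gene *Dpp4* (50.9% against 59.6%), *Atp2b4*, *Itpkb*, *Zbtb20*, *Clec2i*, *Syne1*, the nuclear pore gene *Nup210* (33.6% against 52.7%), *Gcnt2*, *Samd3* and *Kbtbd11*. All 200 members had a position in the GRCm38 annotation, and 191 of them were annotated as protein coding.

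The second deposited table divides the cells kept as ILC2s into 10 subclusters, numbered from 0, and 138 of the 200 members were listed there. It lists 2629 genes in all, and the overlap of genes listed for other types was not counted. The 138 are thus a description and no trait of the members. Of these 138, 60 had shares above and 78 below the other cells in ILC2_2. Over all subclusters, 263 of 3745 listings (7.0%) were of members. Subcluster 5 held the most, 59 of its 1000 listings (5.9%), of which 14 were above and 45 below in ILC2_2. In subcluster 5 itself 57 of the 59 had a share below that of the other ILC2s, as had 978 of all its listings (97.8%), so this is no trait of the members. Subcluster 3 held 46 of 237 listings (19.4%), with 22 above and 24 below in ILC2_2. Subcluster 0 held 34 of 300 (11.3%), with 25 above and 9 below, among them *Il1rl1*, *Tnfsf11*, *Calca*, *Pcsk1* and *Fosb*. The percentage of listings that were members was highest in subclusters 3 and 0, and *Igkc* and *Ighm* were listed for no subcluster.

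Shares from both tables are not on one scale. For 43 genes listed for ILC2_2, ILC2 and a subcluster, the share over ILC2 and ILC2_2 cells in the cell type table was set beside that over all cells of the subcluster table. It was higher in the cell type table for 42 genes, by a median of 18.9 points with a range from −2.4 to 68.7. Levels were therefore not compared between the tables.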

How the data were processed

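The 4 libraries of sorted liver and lung ILC2s were read by the authors with the 3′ single-cell kit of 10x Genomics, aligned to mm10 with Cell Ranger and analysed with Seurat; flow cytometry served to remove dead cells and doublets, cells with few genes were excluded, and types were annotated by hand. The labels gave the groups, each of 1 library. A pair of deposited marker tables pools all libraries: 4422 listings in 21 cell types and 3745 in 10 subclusters. The deposited shares of cells above 0, inside and outside a cluster, are fractions to 3 decimals and were used as percentages. The deposited log2 fold changes and p-values are the authors' own comparisons. They were read only to count the 36 genes above and to learn the filter. It left no negative log2 value, a smallest of 0.25 and a largest raw p-value of 0.0095. The tables held 0 further columns of values, and the depth is unknown.

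Sizes were solved by least squares, since the share outside plus the size times the difference of shares is the same for every type that lists a gene (1045 genes in at least 2 types); the SE comes from the residuals and covers the fit only. The fit was tested on simulated data. Shares in remaining types were solved from the sizes. No test between groups was run, because no value per library exists here. Genes named were the markers, the members on 25 lists of 541 genes, the 10 largest differences each way, and the rest by type. The members and lists were chosen with earlier results of these data known. Positions are from GENCODE M21 (GRCm38). Python 3.11.15, pandas 2.3.3, numpy 2.4.6 and matplotlib 3.10.9 were used. Alternatives counted listings with a share above the other cells, or with shares at least 10 points apart, and refitted the sizes under other gene choices. A few members and list genes are not reported here by name.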

Additional observations from a re-analysis of the deposited data

How the results depend on the processing

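Counting only listings with a share above the other cells left 94 of the 200 ILC2_2 genes, 30 of the 51 shared with ILC2 and 13 of the 23 shared with Plasma cell. Requiring shares at least 10 points apart left 26 and 11 of the shared genes and 67 of the 106 genes with a share below. Among genes listed for no other type, 5 had a share below. These counts follow from the narrower choice of listings. The solved size of ILC2_2 stayed between 1.76% and 1.78% under 3 other gene choices, 1 of them chosen after seeing the data, and with sizes made to sum to 1. A second added choice, counting only genes with an ILC2_2 share above the other cells, could not change the 14 genes more frequent in ILC2_2 than in ILC2 and is no check of that count. Of the 25 gene lists, 15 shrank by a factor over 1.5 when only shares above the other cells were counted, and 10 did not. Among those 10 were the basophil and mast cell, hepatocyte and red cell lists, which held no member and could not shrink. Of the 200 genes, 36 had an adjusted p-value of the authors of at least 0.05. No paired analysis was possible because a group holds 1 library and no value is split by library. The deposited tables give neither depth nor a number of cells, so no interval is given for a share.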
